A study of Mus musculus with 16 samples.

Results

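The genes described here mostly encode core parts of the machinery that shortens the poly(A) tail of an mRNA, removes its cap and degrades what remains. They were chosen by symbol, as every gene named Cnot, Exosc, Dcp1, Dcp2, Pan2, Pan3, Xrn1, Xrn2, Parn or Lsm followed by a number. The rule itself uses no measured value, although it was chosen with earlier results of these data known. The rule found 41 of the 15386 genes in the RNA-seq table and 42 of the 13490 genes in the m6A table, and *Exosc6* was listed in the m6A table only. Every one of them had enough counts to be tested, among 11979 RNA-seq and 11447 m6A genes tested.

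The study sorted erythroid progenitors of the CFU-E stage from the bone marrow of adult C57BL/6 mice of both sexes, as cells negative for lineage markers, CD16/32, CD41, CD34 and Sca1 and positive for Kit and CD71. RNA-seq compared 3 libraries of control CFU-E with 3 libraries labelled as Kit-lo CFU-E deficient in *Mettl3* (below, the labelled libraries). The latter are the progenitors with little surface Kit from *Mettl3* fl/fl mice carrying EpoR-tdTomato-Cre (EpoR Cre/-). This Cre is driven by the erythropoietin receptor locus and is active in erythroid cells and in macrophages of erythroblastic islands. The paper also reports a partial loss of *Mettl3* mRNA in lineage-negative cells positive for Sca1 and Kit. Mettl3 is the catalytic subunit of the enzyme that writes N6-methyladenosine (m6A) on mRNA. The m6A experiment compared 2 libraries of RNA immunoprecipitated with an m6A antibody (IP) with 2 input libraries, all from control CFU-E. The exact genotype of the control mice, and whether replicates came from separate animals, is not given in the sources used here, so p-values measure the spread between these libraries, which may be technical. Genotype and Kit level changed together between the RNA-seq groups and cannot be told apart.

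Most mRNAs decay after deadenylation. The PAN2-PAN3 pair trims long poly(A) tails, the CCR4-NOT complex removes the rest, and the shortened message is then decapped by Dcp2 with its activator Dcp1 and digested from its 5′ end by Xrn1, or digested from its 3′ end by the RNA exosome. The Lsm1-7 ring binds short tails and promotes decapping, whereas the Lsm2-8 ring, which shares most of its subunits, holds U6 snRNA in the nucleus. The reader protein Ythdf2 binds m6A and recruits CCR4-NOT, and erythroid cells remove most of their transcriptome as they mature.

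Letters around the m6A consensus motif are shown for the genes that stood highest and lowest in the IP, because the motif is present in both kinds. The 5 letters GGACT, a common form of the consensus, were searched on the transcript strand of the longest annotated coding transcript of each gene (GENCODE annotation, GRCm38). For each gene, the match nearest to the stop codon within a single exon is printed with 10 bases on either side and with the motif in capitals. *Cnot9*, *Cnot1* and *Xrn1* were higher in IP than in input, and *Exosc6*, *Lsm11* and *Cnot11* were lower.
Cnot9: atgaatagctGGACTctgctggctc
Cnot1: ctctacgtagGGACTcaggctatcg
Xrn1: tcactgtgtgGGACTacatagtgag
Exosc6: gaggattcgaGGACTgctatcgccc
Lsm11: caggtcagcaGGACTaaccaggcag
Cnot11: ttaacgtgcaGGACTtgtttataga
The windows lie in the 3′ UTR for *Cnot9* (chr1:74529910-74529934, + strand, 1066 bases after the stop codon), *Xrn1* (chr9:96053135-96053159, + strand, 336 bases after), *Exosc6* (chr8:111057213-111057237, + strand, 31 bases after) and *Lsm11* (chr11:45933438-45933462, - strand, 161 bases after). They lie in the coding sequence for *Cnot1* (chr8:95723387-95723411, - strand, 463 bases before the end of the stop codon) and *Cnot11* (chr1:39545127-39545151, + strand, 129 bases before). The single match in *Parn*, the other gene higher in IP, spans an exon junction and is not printed. Among members with a full window of 400 bases around the stop codon, 11 of 38 (28.9%) held the motif in it, against 40.4% of 10173 such windows among all genes tested. A match is a description of the letters and not evidence of a methylated site.

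Library totals ran from 17429262 to 21329242 counts in RNA-seq and from 19421059 to 37142742 in the m6A data, and members took 0.355% to 0.399% of the counts of each RNA-seq library. *Kit*, the marker used in the sort, was lower in the labelled libraries (log2 fold change -3.44, SE 0.15, edgeR adjusted p = 4.3e-07). *Mettl3* itself was not measurably lower, at 115, 123 and 130 CPM (counts-per-million, TMM-normalised) in control CFU-E and 117, 127 and 108 in the labelled libraries (log2 fold change -0.068, SE 0.096, adjusted p = 0.63). By qRT-PCR and Western blot, the paper reports no *Mettl3* mRNA or protein in erythroid cells of these mice. It also reports a lower global m6A level there by a colorimetric assay. Counts per gene do not show which exons the reads came from, and *Tox4*, transcribed from the other strand, overlaps 18.4% of the exonic bases of *Mettl3*. The summed level of 8 late erythroid markers was 197 to 220 CPM in control CFU-E and 2659 to 4515 in the labelled libraries, and that of 4 early progenitor markers was 184 to 203 and 24.9 to 27.4. The summed level of 6 CFU-E markers was 3030 to 3126 and 3028 to 3169, while macrophage markers stayed at or below 10.6, granulocyte markers at or below 37.8, megakaryocyte markers at or below 19.3 and lymphoid markers at or below 3.4 CPM in every library. The part of maturation in the changes described next was not tested. In these bulk libraries, fewer cells of a type and less RNA per cell cannot be told apart.

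The libraries labelled Kit-lo and *Mettl3*-deficient were compared with control CFU-E gene by gene. A gene was called differentially expressed at a fold change of at least 1.5 and an adjusted p under 0.05 (edgeR quasi-likelihood test, Benjamini-Hochberg adjustment over all genes tested). By this call *Lsm10*, *Exosc4* and *Dcp2* were higher and *Cnot7*, *Exosc10* and *Cnot10* were lower. These 6 members are 14.6% of 41, and 22.0% of all genes tested were called. Members called higher made up 7.32%, against 12.1% of all genes, and members called lower 7.32%, against 9.83%. At an adjusted p under 0.05 and any fold, 7 members were higher (17.1%, against 17.6% of all genes) and 9 were lower (22.0%, against 16.9%), in all 39.0% of members against 34.5% of all genes. The median log2 fold change of members was -0.14, beside 0.0080 for all genes tested. The libraries of the groups did not overlap for 8 members that stood higher (19.5%, against 23.5% of all genes) and 16 that stood lower (39.0%, against 24.0%), and in either direction this was so for 47.5% of all genes.

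**Figure D1:**
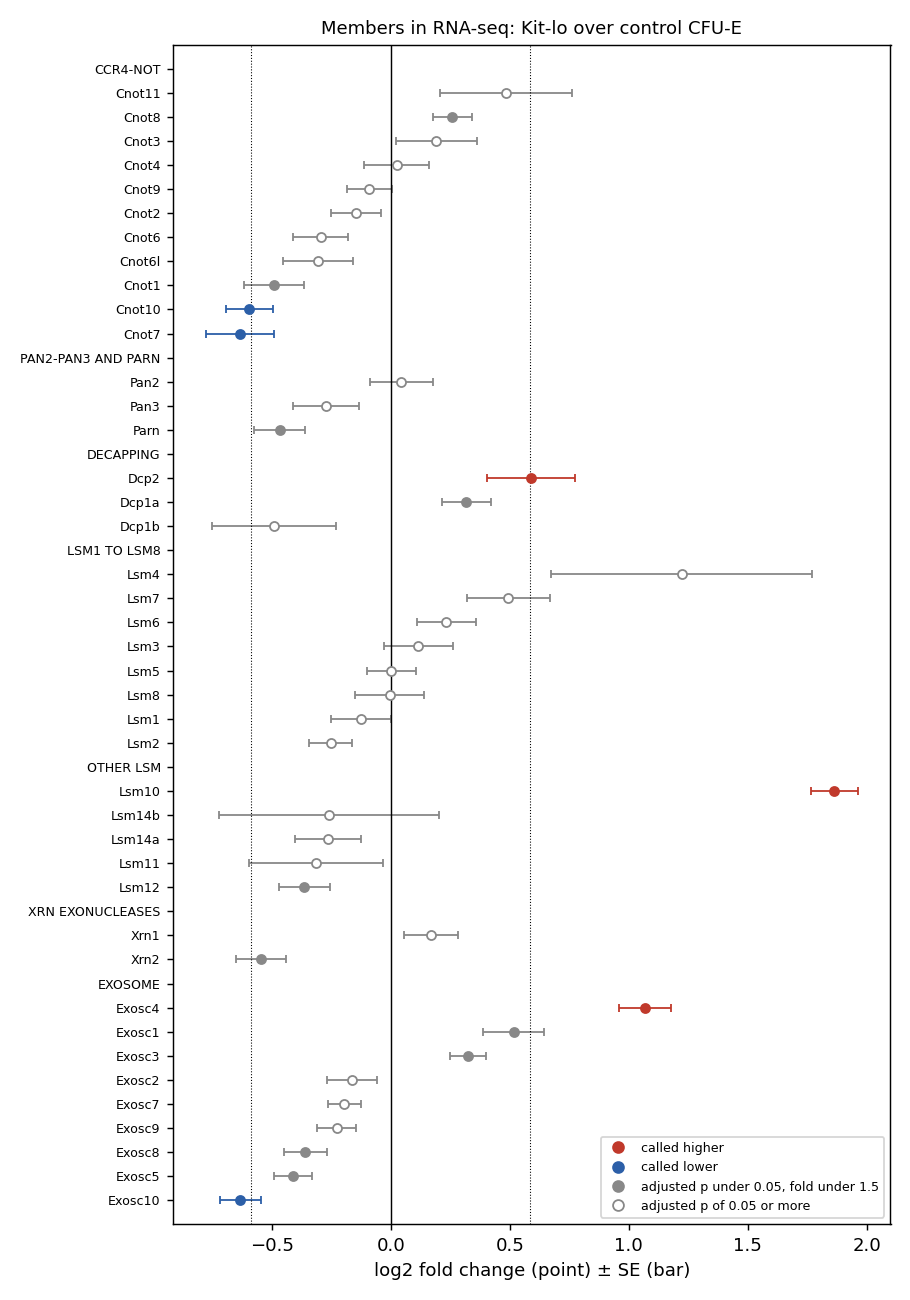
Log2 fold change of each of the 41 members in RNA-seq, libraries labelled Kit-lo and *Mettl3*-deficient over control CFU-E (x axis), with genes grouped by role (y axis). Points are edgeR estimates, bars are ± SE, dotted lines mark a fold of 1.5, colors mark calls and open points an adjusted p of 0.05 or more. *Lsm10* and *Exosc4* stand clear of the dotted line, and *Dcp2*, *Cnot7*, *Exosc10* and *Cnot10* lie close to it.

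*Lsm10* showed the largest rise. Its product is not a decay factor but, with Lsm11, part of the U7 snRNP, which forms the 3′ end of replication-dependent histone mRNAs. *Lsm10* (chr4:126096623-126098584, + strand, GRCm38) measured 51.1, 47.2 and 43.0 CPM in control CFU-E and 179, 166 and 169 in the labelled libraries. Every labelled library stood above every control library, and the log2 fold change was 1.86 (SE 0.10, adjusted p = 1.5e-06). Its partner *Lsm11* was scarce and did not pass the test (7.5, 5.9 and 7.9 CPM against 4.0, 6.0 and 7.1; log2 fold change -0.31, SE 0.28, adjusted p = 0.44). Of the remaining Lsm genes outside the rings, *Lsm12* fell (log2 fold change -0.36, SE 0.11, adjusted p = 0.025). *Lsm14a* and *Lsm14b*, which encode translational repressors of P-bodies, had log2 fold changes of -0.26 (SE 0.14, adjusted p = 0.18) and -0.26 (SE 0.46, adjusted p = 0.71).

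The RNA exosome has a barrel of ring subunits, a cap of 3 RNA-binding subunits and the attached nuclease Exosc10, which acts in the nucleus. Of its 9 genes measured in RNA-seq, *Exosc4*, *Exosc1* and *Exosc3* rose and *Exosc10*, *Exosc5* and *Exosc8* fell at an adjusted p under 0.05, and the group median was -0.19. *Exosc4* (chr15:76327397-76330677, + strand), a ring subunit, measured 111, 99.1 and 92.7 CPM in control CFU-E and 239, 195 and 203 in the labelled libraries. The lowest labelled library was well above the highest control library, and the log2 fold change was 1.07 (SE 0.11, adjusted p = 6.0e-05). Of the exonic bases of *Exosc4*, 19.8% overlap *Oplah* on the opposite strand, and the strand used in counting is not stated. *Exosc10* (chr4:148558429-148582401, + strand) measured 245, 216 and 244 CPM and 156, 156 and 143. The groups did not overlap, and *Exosc10* fell by 0.63 on the log2 scale (SE 0.09, adjusted p = 0.00037).

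The other exosome genes moved by less than the 1.5-fold limit. The cap subunit genes *Exosc1* and *Exosc3* rose, with log2 fold changes of 0.52 (SE 0.13, adjusted p = 0.011) and 0.32 (SE 0.08, adjusted p = 0.0081). The ring subunit genes *Exosc5* and *Exosc8* had log2 fold changes of -0.41 (SE 0.08, adjusted p = 0.0033) and -0.36 (SE 0.09, adjusted p = 0.012). *Exosc2*, *Exosc7* and *Exosc9* did not pass the test, with log2 fold changes from -0.23 to -0.16. Per transcript length, the exosome genes were among the most abundant members in the control RNA-seq libraries, led by *Exosc7* at 635 TPM (transcripts-per-million). *Exosc5* stood at 449 and *Exosc3* at 332, with *Exosc1* lowest of the complex at 20.8. The order differed in the m6A input libraries of control CFU-E, with *Exosc7* at 1019 TPM, *Exosc1* at 127 and *Exosc10* at 24.5. *Lsm7* and *Lsm2* stood at 1007 and 750 TPM there, against 21.8 and 212 in the control RNA-seq libraries. The m6A libraries were made by another protocol, which amplified fragments from the poly(A) end of the cDNA. Dividing their counts by transcript length may therefore distort TPM, and the orders in both experiments are not directly comparable.

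CCR4-NOT is built on the scaffold Cnot1 and carries a deadenylase of either of its families, Cnot6 or Cnot6l and Cnot7 or Cnot8. Of its 11 genes, *Cnot8* rose and *Cnot1*, *Cnot7* and *Cnot10* fell at an adjusted p under 0.05, while 7 did not pass the test. The group median was -0.14, with 7 negative and 4 positive values, beside 5916 negative and 6063 positive values among all genes tested. With upper quartile scaling the group had 8 and 3, and the median of all genes was -0.030. *Cnot7* (chr8:40492540-40515847, - strand) measured 38.3, 39.3 and 35.3 CPM in control CFU-E and 27.9, 23.9 and 21.0 in the labelled libraries. The groups did not overlap, and the gene fell by 0.63 on the log2 scale (SE 0.14, adjusted p = 0.0065). *Cnot10* (chr9:114585878-114640184, - strand), which encodes a subunit of the module that also holds Cnot11, measured 101, 93.6 and 97.7 CPM and 61.2, 62.2 and 70.4. It too fell without overlap, by 0.59 (SE 0.10, adjusted p = 0.0012). The scaffold *Cnot1* measured 282, 244 and 297 CPM and 219, 207 and 159, a log2 fold change of -0.49 (SE 0.12, adjusted p = 0.012) that did not reach the fold limit. *Cnot8* measured 178, 177 and 189 CPM and 209, 235 and 208. The groups did not overlap, but the rise was small (log2 fold change 0.26, SE 0.083, adjusted p = 0.035) and passed the test without labelled library 1 or 3 but not without any of the other 4 libraries (adjusted p = 0.074 to 0.13), nor with upper quartile scaling or no filter on low counts (0.055 and 0.061).

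The remaining 7 CCR4-NOT genes did not pass the test. *Cnot6* and *Cnot6l* had log2 fold changes of -0.29 (SE 0.12, adjusted p = 0.078) and -0.30 (SE 0.15, adjusted p = 0.14). *Cnot2*, *Cnot3*, *Cnot4*, *Cnot9* and *Cnot11* ranged from -0.14 to 0.49. In the control RNA-seq libraries *Cnot9* (225 TPM) and *Cnot8* (183 TPM) were the most abundant CCR4-NOT mRNAs per length. There *Cnot7* stood at 26.7 TPM and *Cnot11* at 2.6. The order differed in the m6A input libraries of control CFU-E, with *Cnot8* at 128 TPM, *Cnot9* at 39.1, *Cnot11* at 15.8 and *Cnot7* at 8.0. As for the exosome genes, the protocols differ, so these orders are not directly comparable. Among the other deadenylases, *Parn* fell (111, 127 and 118 CPM against 95.9, 84.2 and 77.3; log2 fold change -0.47, SE 0.11, adjusted p = 0.0074). *Pan2* and *Pan3* did not pass the test, at 0.044 (SE 0.13) and -0.27 (SE 0.14).

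Of the 3 decapping genes, *Dcp2* and *Dcp1a* rose. *Dcp2* (chr18:44380502-44424969, + strand), the decapping hydrolase, measured 14.2, 11.1 and 16.6 CPM in control CFU-E and 23.2, 19.9 and 20.0 in the labelled libraries. The groups did not overlap, and the log2 fold change was 0.59 (SE 0.18, adjusted p = 0.031). *Dcp1a* did not reach the fold limit (log2 fold change 0.32, SE 0.10, adjusted p = 0.035), and *Dcp1b* had a log2 fold change of -0.49 that did not pass the test (SE 0.26, adjusted p = 0.18). Of the 5′ exonucleases, the nuclear *Xrn2* fell by less than the fold limit (298, 295 and 296 CPM against 238, 191 and 180; log2 fold change -0.55, SE 0.11, adjusted p = 0.0028). The cytoplasmic *Xrn1* did not pass the test (log2 fold change 0.17, SE 0.11, adjusted p = 0.29).

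Of the 8 ring genes *Lsm1* to *Lsm8*, 0 passed the edgeR test at an adjusted p under 0.05, 3 had an unadjusted p under 0.05, and 2 (*Lsm2* and *Lsm7*) passed in DESeq2 at any fold. The smallest adjusted p-values were those of *Lsm7* (12.1, 12.1 and 10.6 CPM against 18.1, 16.8 and 14.2; adjusted p = 0.051) and *Lsm2* (91.8, 84.9 and 86.0 against 72.7, 73.3 and 74.8; adjusted p = 0.054). *Lsm4* had the largest standard error of the members, with 9.9, 14.4 and 5.8 CPM in control CFU-E and 6.2, 23.1 and 40.8 in the labelled libraries, and its log2 fold change of 1.22 (SE 0.55) did not pass the test (adjusted p = 0.11). *Lsm5* was nearly the same in every library (49.1 to 51.8 CPM), but its transcript shares near-identical stretches with the pseudogenes *Gm10074* and *Gm7846*, so its counts are uncertain.

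Of the 6 calls, those of *Lsm10* and *Exosc4* also held when the fold was tested against 1.5 itself (adjusted p = 8.2e-06 and 0.0025), and those of the other 4 did not. The 3 calls of lower members were lost with scaling by library size alone, where 3 members were called higher and 0 lower, while *Cnot7*, *Exosc10* and *Cnot10* still had adjusted p-values of 0.014, 0.00061 and 0.0016. Without the third labelled library, 1 member (*Cnot10*) was called lower. *Cnot10* fell short of the fold limit without control replicate 1 or without labelled library 1 or 2. *Dcp2* lost its call with upper quartile scaling, with no filter on low counts, without control replicate 1 or 2 and without labelled library 1 (adjusted p = 0.085, 0.12 and 0.073 for the left-out libraries). Without labelled library 1, *Lsm4* was called higher and *Xrn2* lower, and without labelled library 3, *Lsm7* was called higher. Of the 10 members that passed the test below the fold limit, *Dcp1a* had an adjusted p of 0.05 or more in 5 of 6 fits with a library left out, *Cnot8* and *Lsm12* in 4, and *Cnot1*, *Exosc1* and *Exosc8* in 1 each (*Cnot1* and *Exosc1* without control replicate 3, *Exosc8* without control replicate 1). *Dcp1a* also missed the threshold with upper quartile scaling and with no filter on low counts (adjusted p = 0.055 and 0.060).

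**Figure D2:**
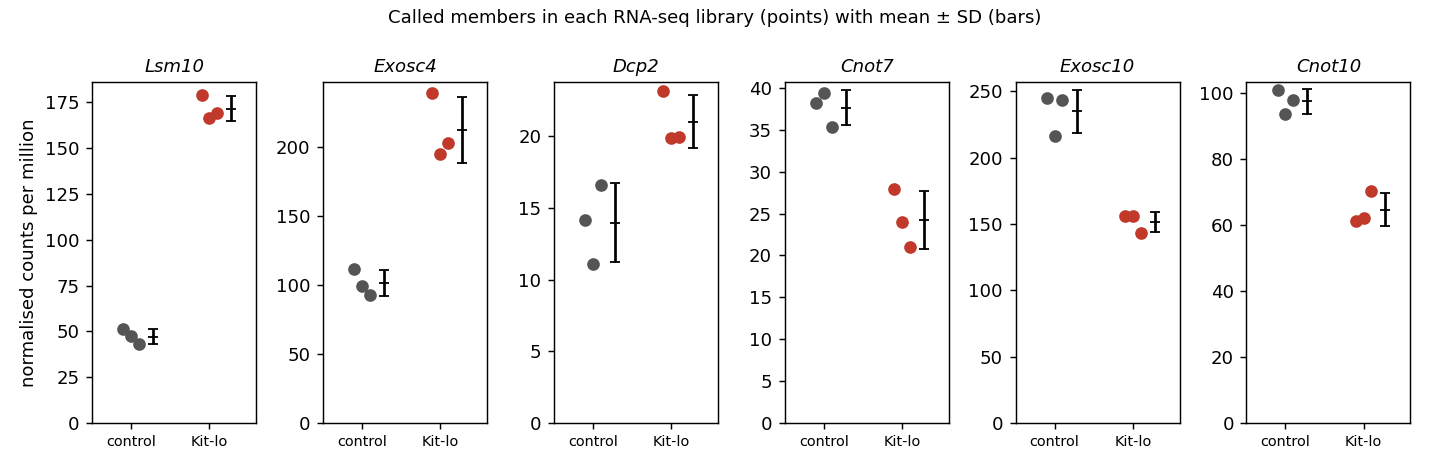
TMM-normalised CPM (y axes, each from 0) of the 6 called members in the 3 control CFU-E and the 3 libraries labelled Kit-lo and *Mettl3*-deficient (points), with the mean ± SD of each group (bars). The groups do not overlap for any of the 6, with a gap widest for *Lsm10* (51.1 CPM at most in control, 166 at least in the labelled libraries).

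Several members come as alternative paralogs, and the ratio of their counts within a library does not depend on how libraries are scaled. The log2 ratio of *Cnot8* to *Cnot7* was 2.21, 2.17 and 2.42 in control CFU-E and 2.90, 3.29 and 3.31 in the labelled libraries, a difference of 0.90. The ratio of *Dcp1b* to *Dcp1a* was -2.26, -2.28 and -2.35 and then -3.07, -2.76 and -3.70, a difference of -0.88. The ratio of *Xrn2* to *Xrn1* was 2.36, 2.59 and 2.50 and then 2.04, 1.56 and 1.68, a difference of -0.73. In these 3 pairs the groups did not overlap, and each gave p = 0.1 in a two-sided exact permutation test, the smallest p that 3 against 3 libraries allow (0.17 after adjustment over 5 pairs), so the design cannot reach 0.05. The ratios of *Cnot6l* to *Cnot6* and of *Lsm14b* to *Lsm14a* overlapped, with differences of -0.011 and -0.013 (exact permutation p = 1 for both).

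**Figure D3:**
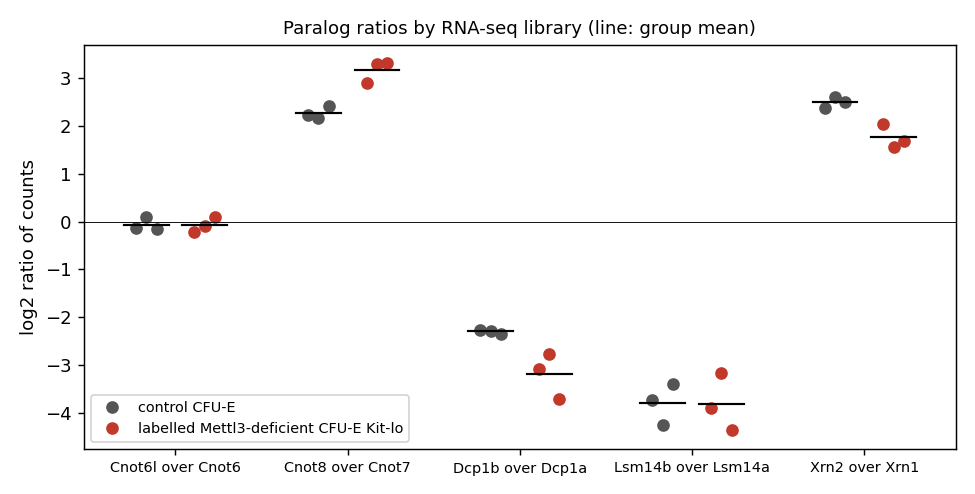
Log2 ratio of the counts of paralogs within each RNA-seq library (y axis) for 5 pairs (x axis), with points for the 3 control CFU-E and the 3 labelled libraries and a line at each group mean. *Cnot8* over *Cnot7* had group means of 2.27 and 3.17, and *Dcp1b* over *Dcp1a* and *Xrn2* over *Xrn1* were lower in the labelled libraries without overlap.

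A list of 57 genes known to act with this machinery was measured in the same fit. Of these, 9 were called higher (15.8%, against 12.1% of all genes) and 5 lower (8.77%, against 9.83%), with a median log2 fold change of 0.0092. Adaptors and other deadenylases made up 6 of the 9 called higher, out of 19 measured in that group, in which 2 were called lower. *Ythdf2*, the m6A reader, measured 424, 350 and 378 CPM in control CFU-E and 949, 847 and 806 in the labelled libraries. Each labelled library was far above each control library, and the log2 fold change was 1.18 (SE 0.09, adjusted p = 1.5e-05). *Tob1* and *Btg2*, whose products bind the Cnot7 and Cnot8 deadenylases, had log2 fold changes of 1.19 (SE 0.30, adjusted p = 0.012) and 1.07 (SE 0.15, adjusted p = 0.00040). *Pelo*, which rescues stalled ribosomes with Hbs1l, had the largest log2 fold change of the list, 2.01 (SE 0.33, adjusted p = 0.0012), from 1.7, 1.3 and 2.1 CPM to 5.1, 7.5 and 7.7. Its counts were low, and 29.25% of its exonic bases overlap *Gm10734* on the opposite strand. *Pde12*, a mitochondrial poly(A) exonuclease, had a log2 fold change of 0.82 (SE 0.11, adjusted p = 0.00042).

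Among the genes called lower, *Zfp36* and *Zfp36l2* encode proteins that bind AU-rich elements and recruit CCR4-NOT. *Zfp36* measured 88.4, 77.6 and 62.7 CPM in control CFU-E and 19.0, 24.3 and 15.6 in the labelled libraries, without overlap (log2 fold change -1.96, SE 0.18, adjusted p = 4.0e-05). *Zfp36l2* had a log2 fold change of -1.33 (SE 0.12, adjusted p = 3.2e-05). *Patl1*, which links the Lsm1-7 ring to decapping, measured 9.6, 10.9 and 9.5 CPM and 3.3, 3.1 and 2.9, also without overlap (log2 fold change -1.68, SE 0.23, adjusted p = 0.00042). *Zcchc7*, a nuclear exosome cofactor, and *Pabpc1*, the major cytoplasmic poly(A)-binding protein, had log2 fold changes of -0.75 (SE 0.13, adjusted p = 0.0013) and -0.64 (SE 0.09, adjusted p = 0.00039), and without control replicate 1 *Pabpc1* fell short of the fold limit at -0.58. The decapping helicase gene *Ddx6* and the exosome nuclease gene *Dis3* did not pass the test, at -0.29 (SE 0.14, adjusted p = 0.16) and 0.020 (SE 0.28, adjusted p = 0.97).

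In the m6A data, the question was which of these mRNAs were more abundant in the IP than in the input of control CFU-E. At an adjusted p under 0.05 in edgeR, *Cnot9*, *Parn*, *Xrn1* and *Cnot1* were higher in IP, 9.52% of 42 members against 7.90% of all genes tested. *Exosc6*, *Lsm11* and *Cnot11* were lower, 7.14% against 7.86%, and 15.8% of all genes passed in either direction. The libraries did not overlap for 16 members that stood higher in IP (38.1%, against 32.2% of all genes) and 7 that stood lower (16.7%, against 28.7%). The median log2 fold change was 0.11 for members and 0.056 for all genes. With upper quartile scaling, which moved the median of all genes from 0.056 to 0.18, 8 members were higher and 3 lower. The share of all genes passing was not counted for this or the other alternative m6A fits. Without input library 1, 1 member (*Cnot9*) was called higher, and without IP library 2, 9 were. *Xrn1* lost its call without input library 2, and *Parn* and *Cnot1* without IP library 1.

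**Figure D4:**
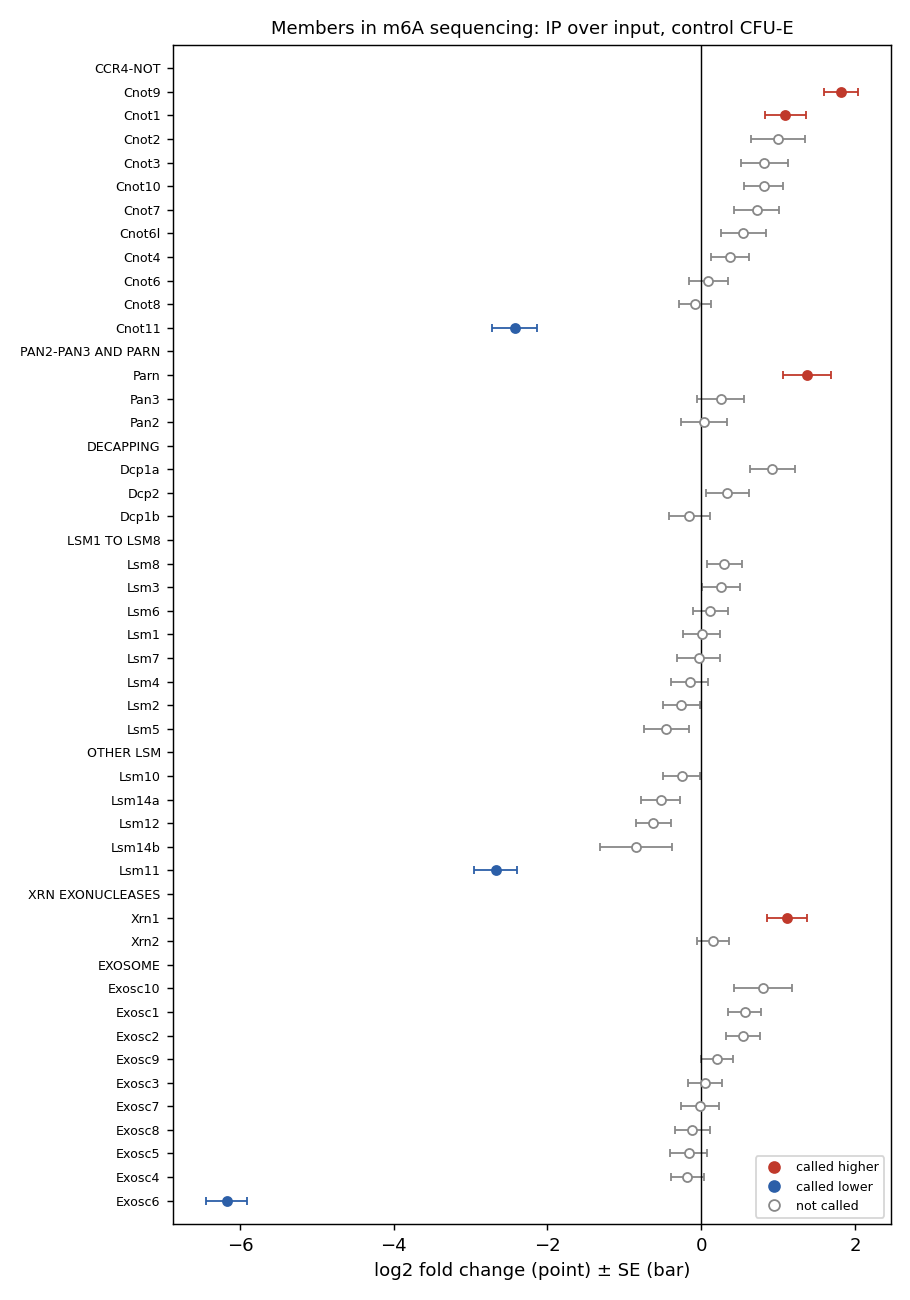
Log2 fold change of IP over input in control CFU-E for the 42 members (x axis), grouped by role (y axis), with edgeR estimates as points and ± SE as bars. Colors mark members with an adjusted p under 0.05, and open points the others. *Cnot9* lies farthest to the right at 1.82, and *Exosc6* farthest to the left at -6.17.

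*Cnot9* (chr1:74506058-74530842, + strand), a CCR4-NOT subunit that docks RNA-binding adaptors, measured 85.5 and 90.4 CPM in the inputs and 337 and 285 in the IPs. Both IP libraries were over the inputs, and the log2 fold change was 1.82 (SE 0.22, adjusted p = 0.00037). *Parn* (chr16:13537960-13668170, - strand), a poly(A)-specific ribonuclease, measured 10.7 and 8.9 CPM in the inputs and 32.1 and 18.7 in the IPs (log2 fold change 1.38, SE 0.31, adjusted p = 0.015). *Xrn1* (chr9:95954760-96057803, + strand) measured 8.1 and 7.9 CPM and 17.1 and 17.8 (log2 fold change 1.12, SE 0.26, adjusted p = 0.018). *Cnot1* (chr8:95719451-95807464, - strand) measured 12.7 and 14.8 CPM and 33.0 and 25.7 (log2 fold change 1.10, SE 0.26, adjusted p = 0.019). In each of these 4 genes the IP libraries did not overlap the inputs.

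*Exosc6*, an exosome ring subunit encoded by a single exon (chr8:111056339-111057664, + strand), measured 303 and 364 CPM in the inputs and 4.7 and 4.6 in the IPs. Both IP libraries were far below both inputs, and the log2 fold change was -6.17 (SE 0.27, adjusted p = 1.6e-06). The whole annotated *Exosc6* transcript of 1326 bases is also contained in a transcript of *Aars*, so reads of the pair can be assigned to either gene. *Aars* measured 23.6 and 22.6 CPM in the inputs and 35.4 and 23.7 in the IPs. *Lsm11* (chr11:45928269-45944935, - strand) measured 25.7 and 25.4 CPM and 4.4 and 3.5 (log2 fold change -2.67, SE 0.28, adjusted p = 0.00014). *Cnot11* (chr1:39534992-39546889, + strand) measured 38.6 and 37.2 CPM and 8.6 and 5.4 (log2 fold change -2.43, SE 0.29, adjusted p = 0.00038). For these 3 genes every IP library was below every input library.

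By role, 9 of 11 CCR4-NOT genes had a positive log2 fold change, beside 6089 of 11447 genes tested. Their median was 0.72, beside 0.056 for all genes. With library size or upper quartile scaling 10 were positive, while the median of all genes moved to 0.21 and 0.18. *Cnot2* did not pass the test (20.7 and 14.7 CPM in the inputs, 48.2 and 22.4 in the IPs; adjusted p = 0.082), nor did *Cnot3* and *Cnot10*, at 0.82 (SE 0.31) and 0.81 (SE 0.26). The 5 Lsm genes outside the rings had negative values under each of the 4 scalings tried, with a median of -0.62. The ring genes *Lsm1* to *Lsm8* lay between -0.45 and 0.30, with 4 values on either side of 0, and the IP and input libraries overlapped for each of them. Of the exosome genes other than *Exosc6*, the largest value was that of *Exosc10* (0.80, SE 0.38, adjusted p = 0.17). Among the decapping genes, *Dcp1a* had the largest value (5.7 and 5.1 CPM in the inputs, 9.0 and 11.6 in the IPs; log2 fold change 0.93, SE 0.30, adjusted p = 0.057), *Dcp2* stood at 0.34 and *Dcp1b* at -0.15. The remaining paralogs did not pass the test, with *Cnot6*, *Cnot6l*, *Cnot7*, *Cnot8* and *Xrn2* between -0.080 and 0.72 and *Lsm14a* and *Lsm14b* at -0.53 and -0.85.

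The IP over input ratio of members was larger for transcripts with more exons. Spearman's rho with exon number was 0.58 over the 42 members and 0.20 over all genes tested, and with coding length it was 0.47 and 0.27. The correlation with GC content was -0.38 and -0.33, and that with the number of GGACT motifs per kilobase was -0.38 and -0.072. With transcript length it was 0.37 and 0.34, with 3′ UTR length 0.11 and 0.24, and with the number of GGACT motifs -0.062 and 0.19. Exon number is thus the strongest of the features examined in the members, and Pearson's r with it was 0.40 and 0.15. These are descriptions across genes of the same 4 libraries, and genes are not independent replicates.

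Of the 57 partner genes, 16 were higher in IP (28.1%, against 7.90% of all genes) and 5 were lower (8.77%, against 7.86%), with a median log2 fold change of 0.38. Those higher included 7 of 15 exosome nucleases and cofactors and 4 of 10 decapping activators. Among the largest values were those of *Ttc37* (1.58, SE 0.33, adjusted p = 0.011) and *Skiv2l* (1.21, SE 0.32, adjusted p = 0.031), subunits of the SKI complex that feeds mRNA into the cytoplasmic exosome, and of *Ddx6* (12.9 and 10.8 CPM in the inputs, 30.8 and 28.3 in the IPs; 1.32, SE 0.25, adjusted p = 0.0068). *Pnrc2*, a decapping coactivator, and *Hbs1l* had log2 fold changes of 1.30 (SE 0.24, adjusted p = 0.0060) and 1.18 (SE 0.35, adjusted p = 0.047). *Dis3* was also higher (1.13, SE 0.30, adjusted p = 0.031). Those lower were *Btg3* (-2.57, SE 0.25), *Zfp36l1* (-2.41, SE 0.26), *Pnrc1* (-2.19, SE 0.26), *Zfp36* (-1.49, SE 0.29) and *Upf1* (-1.21, SE 0.31), with adjusted p-values from 9.2e-05 to 0.026. Of the exonic bases of *Zfp36l1*, 55.9% overlap *Gm26669* on the opposite strand. *Ythdf2* did not pass the test (128 and 110 CPM in the inputs, 153 and 97.4 in the IPs; 0.075, SE 0.25, adjusted p = 0.87). The 16 partner genes higher in IP became 2 without input library 1, 6 without input library 2 and 5 without IP library 1.

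The m6A and RNA-seq experiments can be set side by side for the 41 members tested in both, which were made from different libraries and normalized separately. Of the 4 members higher in IP, *Cnot1* and *Parn* fell in the RNA-seq comparison at an adjusted p under 0.05, and 0 of the 4 were called at a fold of 1.5 (edgeR and DESeq2). Among all genes higher in IP, 192 of 864 (22.2%) fell at that adjusted p. *Lsm10* and *Exosc4*, the members that rose most, had IP over input values of -0.25 (SE 0.24) and -0.18 (SE 0.22) and did not pass the m6A test. Across the 41 genes Pearson's r between the log2 fold changes was -0.15 and Spearman's rho -0.11.

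**Figure D5:**
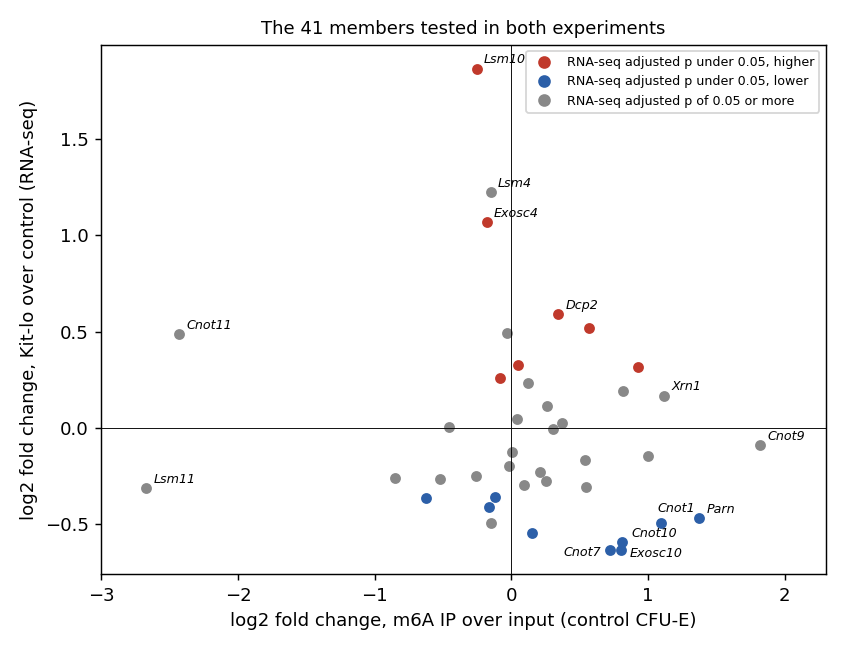
Log2 fold change of IP over input in control CFU-E (x axis) against log2 fold change of the libraries labelled Kit-lo and *Mettl3*-deficient over control CFU-E in RNA-seq (y axis) for the 41 members tested in both. Points are genes, colored by their RNA-seq test at an adjusted p of 0.05. *Lsm10* and *Exosc4* lie high on the y axis with x values near 0, and *Cnot1* and *Parn* lie at the lower right.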

How the data were processed

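The authors filtered reads with fastp 0.23.4, quantified transcripts with kallisto 0.48.0 on the mm10 reference and summarized them to genes with tximport, and deposited estimated counts per gene without normalization. The submitters' processing notes also name GRCm39. Smart-seq2 was used for RNA-seq and SLIM-seq for the m6A libraries, the latter with molecular identifiers, whose use in counting is not stated. Whether PCR copies were counted separately is therefore not known. Deposited values were whole numbers, so rounding changed none of them. Samples were grouped by their labels. The 6 ProE samples were not analysed here.

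Counts were tested in R 4.3.3 with edgeR 4.0.16 (TMM, filterByExpr, glmQLFit and glmQLFTest), 1 fit per experiment over all genes. SE is the absolute log2 fold change divided by the square root of F. CPM values are TMM-normalised, and TPM used the longest coding transcript of GENCODE vM21 (GRCm38). TPM was computed in the same way for the m6A libraries, although their protocol amplified fragments from the poly(A) end. A count of 0.5 was added in paralog ratios. The members' symbol rule, the lists and the tests were chosen with earlier results of these data known. Every member is placed by role. The rule for named genes took called members, paralogs, the 5 partner genes with the largest changes called in each direction, *Ythdf2*, *Ddx6*, *Dis3*, *Mettl3* and *Kit*; some paralogs are given as fold changes or ranges. *Btg4*, also on the partner list, was in neither table. The alternatives were DESeq2 1.42.0, other scalings, filters and thresholds, a replicate block and leaving out each library.

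The biological coefficient of variation was 19.1% in RNA-seq and 21.9% in the m6A data. No libraries of a group were copies (chi-square per degree of freedom 9.48 to 64.4). On simulated counts with 200 genes changed, edgeR recovered 63 of 100 genes changed 2-fold and 86 of 100 changed 4-fold in the RNA-seq design (11979 genes, 11 false calls), and 38 and 89 of 100 in the m6A design (11447 genes, 10 false calls). Genes missed at 4-fold had low counts, and those of at least 100 counts were all recovered (72 and 79 genes). At 2-fold, 80.5% of 77 such genes were recovered in the RNA-seq design and 50% of 72 in the m6A design. The simulated counts used the dispersions of the fit itself. Far more genes were called in the real RNA-seq data (22.0% of those tested), so recovery and false calls there may differ. Figures were drawn with matplotlib 3.10.9.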

Additional observations from a re-analysis of the deposited data

How the results depend on the processing

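With DESeq2, with DESeq2's size factors in edgeR and with a minimum mean of 1 TPM, the members called in RNA-seq numbered 3 higher and 3 lower and were the same genes. Without a fold threshold 7 members were higher and 9 lower, and 8 partner genes were lower. Tested against a fold of 1.5 in edgeR, 0 members were lower (0 also at an unadjusted p under 0.05; DESeq2 was not run against a fold), and 3 partner genes were higher and 3 lower. With library size scaling 0 members were lower. In the m6A data 8 members were higher in IP with upper quartile scaling, and DESeq2 gave 6. For these fits the share of all genes passing was not counted. Scaling by library size moved the median of all m6A genes from 0.056 to 0.21. Some values near 0 turned their sign: *Dis3* in RNA-seq to -0.018 (upper quartile), the ratio of *Lsm14b* to *Lsm14a* to 0.0099 (offset of 5), and in the m6A data *Cnot8* to 0.073 (library size), 0.052 (upper quartile) and 0.0026 (1 TPM) and *Dcp1b* to 0.015 (library size). The cause was not tested. Leaving out each library in turn gave 2 to 4 members higher and 1 to 3 lower in RNA-seq, and in the m6A data 1 to 9 members and 2 to 14 partner genes higher in IP, where the lone library of a group is assumed to vary like the other group. The same left-out values ran from -0.58 to 0.035 for *Lsm14b*, from -0.36 to 0.32 for *Dis3* and from -0.12 to 0.0027 for *Mettl3* in RNA-seq, from -0.092 to 0.065 for the ratio of *Cnot6l* to *Cnot6*, and from -0.34 to 0.27 for that of *Lsm14b* to *Lsm14a*. In the m6A data they ran from -0.40 to 0.040 for *Dcp1b*, from -0.087 to 0.27 for *Cnot6* and from -0.31 to 0.36 for *Ythdf2*.

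Replicate numbers are shared between groups, but no source ties them to an animal. The deviations of same-numbered libraries correlated at 0.082, -0.022 and -0.087 in RNA-seq, where not every library correlated best with its own number, and at 0.32 in the m6A data, which have 2 pairs. With the replicate number as a block, 3 members were higher and 3 lower in RNA-seq, *Cnot8* had an adjusted p of 0.055 and *Dis3* stood at -0.087, while in the m6A data 12 members were higher and 5 lower in IP, and 22 partner genes were higher and 8 lower. The share of all genes passing with the block was not counted, so these counts do not set the members or partner genes apart from other genes.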
